A study of Sus scrofa with 6 samples.

Results

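MSTRG.18512.2 is an assembled transcript of the sarcolipin gene, SLN, that the authors placed among the long noncoding RNAs of pig skeletal muscle. It was chosen by its name, as 1 of the 4046 transcripts in the deposited lncRNA table, because its FPKM (fragments per kilobase of transcript, scaled to the fragments sequenced) stood among the highest there. Its level, rank and share are therefore described without a test, whereas the difference between the muscles was not used in the choice. The RNA came from 2 muscles of Qinyu pigs (Qingyu in the paper), all female, 178 days old and kept off feed before slaughter. The longissimus dorsi muscle (LDM) served as the glycolytic muscle and the psoas major muscle (PMM) as the oxidative muscle, with 3 libraries of each and no treatment. The libraries were made from total RNA after removal of ribosomal RNA. Both muscles were taken from the same group of pigs, but no source says which libraries share a pig.

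Sarcolipin is a very short membrane protein of the sarcoplasmic reticulum, the calcium store of the muscle fibre. It binds SERCA, the ATP-driven pump that returns calcium to the store, and lowers the amount of calcium moved per ATP used, so that more of the energy is released as heat. In adult mice it is abundant in the atria of the heart and in a few slow or respiratory muscles, whereas larger mammals make it in many skeletal muscles. A spliced RNA from such a locus may be an isoform of the messenger RNA or a separate noncoding RNA, and the deposited table separates these only by scores of coding potential.

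In the authors' table MSTRG.18512.2 lies on the minus strand of chromosome 9 from 40309455 to 40318719, a span of 9265 bases. It has 3 exons with a spliced length of 1088 bases, so 11.7% of the span is kept in the RNA. Its class code is j, which marks a model that shares at least 1 splice junction with an annotated transcript, here of SLN. The table holds 1 transcript of this gene ID and 1 transcript assigned to SLN. The levels of the sarcolipin messenger RNA were not analysed here, nor was the way reads of the locus were divided between this model and other SLN transcripts. The methods name the genome build Sscrofa11.1, but SLN of that assembly (RefSeq) does not overlap the position in the table. On 18 of the 19 chromosomes compared, positions in the table also ran past the last gene of that assembly. The positions are therefore not taken as those of Sscrofa11.1, and which build they belong to is not settled. In RefSeq, SLN is a protein-coding gene on chromosome 9 that spans 9451 bases, and its nearest protein-coding neighbours are ELMOD1 and SLC35F2.

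The call of MSTRG.18512.2 as noncoding was close to both limits that the authors set. The CPC score (Coding Potential Calculator, kept below -1) was -1.01149, and the CNCI score (Coding-Non-Coding Index, kept below 0) was -0.004096. The medians over the table were -1.15347 for CPC and -0.0331776 for CNCI. Of the 4046 transcripts, 127 (3.14%) had a CPC score nearer to the limit. By CNCI, 709 (17.5%) were nearer and 112 others had the same score. Nearer to both limits at once were 16 transcripts (0.395%), which leaves out those with the same CNCI score. The mean FPKM of these 16 did not exceed 1.55, against 249 for MSTRG.18512.2, which was chosen for its level. Of all 4046 transcripts, 43 had a mean of at least 10 FPKM. Nothing on coding scores and level is therefore read from this contrast. The other 9 transcripts among the 10 of the highest mean FPKM had CPC scores from -1.3161 to -1.0311, all farther from the limit. By CNCI, however, 2 of these 9, MSTRG.9572.1 and MSTRG.7363.1, were nearer to the limit than MSTRG.18512.2.

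**Figure D1:**
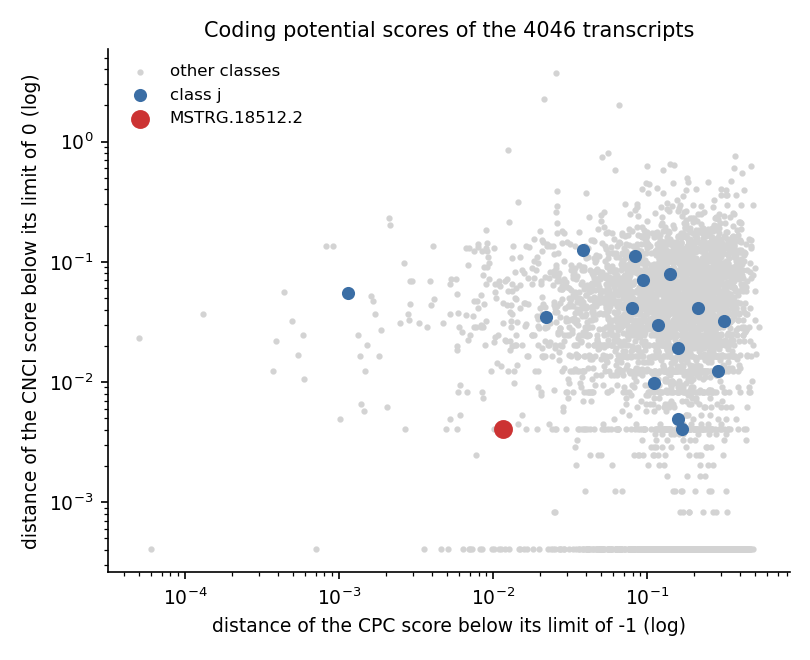
Distance of the CPC score below its limit of -1 (x axis) and of the CNCI score below its limit of 0 (y axis), both on log axes without a unit, for the 4046 transcripts. Grey points are other classes, blue points the 15 other class j transcripts and the red point MSTRG.18512.2, which sits low on both axes with a CPC score of -1.01149 and a CNCI score of -0.004096.

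The 6 libraries were similar in depth, but LDM replicate 2 stood apart in several measures. The constant ratio of coverage to FPKM put 7.24 to 8.78 gigabases behind the FPKM of each library, with LDM replicate 2 the lowest. That library listed 2855 transcripts above 0 FPKM, against 2107 to 2464 in the other 5, and MSTRG.17109.1, at an RNase P RNA gene, alone had 5825 FPKM in it. Under their symbols, no transcript was found at any of 10 genes that define muscle fibres, or at the listed genes of adipocytes, endothelium or nerve, so these markers gave no check of the tissue labels. Of the 164 Ensembl IDs that stand in place of a symbol in the table, 83 could not be matched and were not searched. Of the 3 listed immune genes only SLA-11 had transcripts, 4 of them, all in introns. They summed to 0 to 7.50 FPKM in LDM, with the highest sum in replicate 2, and to 1.29 to 3.21 FPKM in PMM. Of the 4 listed fibroblast genes only PDGFRB, also a gene of pericytes, had a transcript, which lay in an intron. It ranged from 1.20 to 2.19 FPKM over LDM and from 1.58 to 2.83 FPKM over PMM. So few transcripts in introns give no check of the cell content. The part of these measures in the values below was not tested.

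MSTRG.18512.2 was abundant in every library of both muscles. In LDM replicates 1, 2 and 3 it was at 463, 60.6 and 155 FPKM, and in the PMM replicates at 208, 285 and 324 FPKM. The highest and the lowest of the 6 values were thus both from LDM, and all 3 PMM values lay between them. The LDM mean was 226 ± 211 FPKM and the PMM mean 272 ± 59.0 FPKM (SD, n = 3 each). The mean read coverage per base, which the authors did not scale between libraries, was 3681, 438 and 1359 in LDM and 1577, 2145 and 2543 in PMM, and it ordered the libraries in the same way. Coverage times length was equivalent to 3180 to 26702 reads of 150 bases. With each read counted by itself, counting error would be up to 1.77% of a value (relative Poisson error). This figure treats reads as independent molecules, but the reads are paired and mates share a fragment, so the counting error is larger. It also does not cover the assignment of reads to isoforms. In bulk muscle, fewer fibres that make an RNA and less of it per fibre cannot be told apart.

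**Figure D2:**
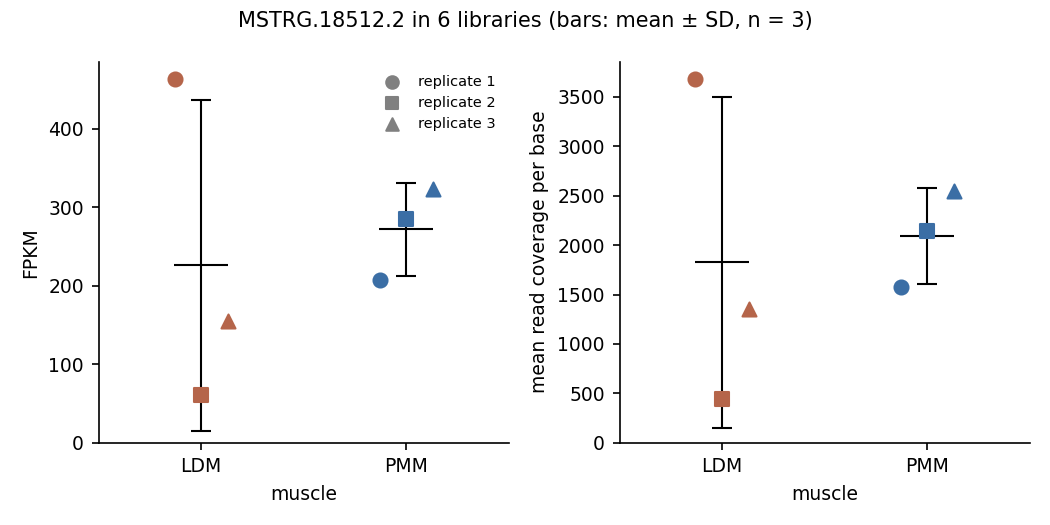
FPKM (left) and mean read coverage per base (right) of MSTRG.18512.2 in the 3 LDM and 3 PMM libraries. Symbols mark the replicate number, horizontal bars the mean and whiskers the SD (n = 3). The PMM libraries lie between 208 and 324 FPKM, inside the LDM range of 60.6 to 463 FPKM.

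The difference of MSTRG.18512.2 between LDM and PMM was not larger than the spread of the libraries. The mean of log2(FPKM + 1) was 7.36 in LDM and 8.07 in PMM, a log2 difference (LDM minus PMM) of -0.71 with a standard error of 0.51 and a 95% interval from -1.78 to 0.36. The interval runs from a level in PMM that is 0.778 times that in LDM to one that is 3.43 times as high, and so leaves room for a change in either direction. The adjusted p was 0.716 (limma, Benjamini-Hochberg over 1721 tested transcripts), and the exact permutation test of the 6 values gave a two-sided p of 0.6, where 3 libraries against 3 allow no p under 0.1. In the same fit 0.174% of the tested transcripts had an adjusted p under 0.05. By unadjusted p, MSTRG.18512.2 ranked at 438 of 1721 in limma, where 7.84% of transcripts were under 0.05. Over all transcripts limma lent it a smaller spread than its own. The SD within muscles was 1.06 on the log2 scale, against 0.45 for the trend at its intensity, and the standard error from its own SD alone would be 0.86.

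The size of this difference moved with the scaling and with single LDM libraries, and its sign with LDM replicate 2. Without LDM replicate 1 the log2 difference (LDM minus PMM) was -1.46 (adjusted p = 0.482 from limma), and without LDM replicate 2 it was 0.0015 (adjusted p = 0.999 from limma). Leaving out any other library gave -0.89 to -0.57. Median-of-ratios scaling gave -0.44 (adjusted p = 0.857 from limma), while it shifted the median of all tested transcripts by 0.10. Between libraries of the same replicate number, the log2 difference was 1.15 for number 1, -2.22 for number 2 and -1.06 for number 3, so LDM was higher in 1 pair and lower in 2. With the replicate number as a block, the adjusted p of limma was 0.208, and 2.79% of transcripts were called. That fit put the spread of the trend, 0.34, in place of the transcript's own SD of 1.21. In the 14 other fits, the adjusted p of MSTRG.18512.2 stayed between 0.208 and 0.999 from limma, so it was not called in any of them. The 95% interval, which is not adjusted for the number of transcripts, left out 0 with the block and without LDM replicate 1.

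**Figure D3:**
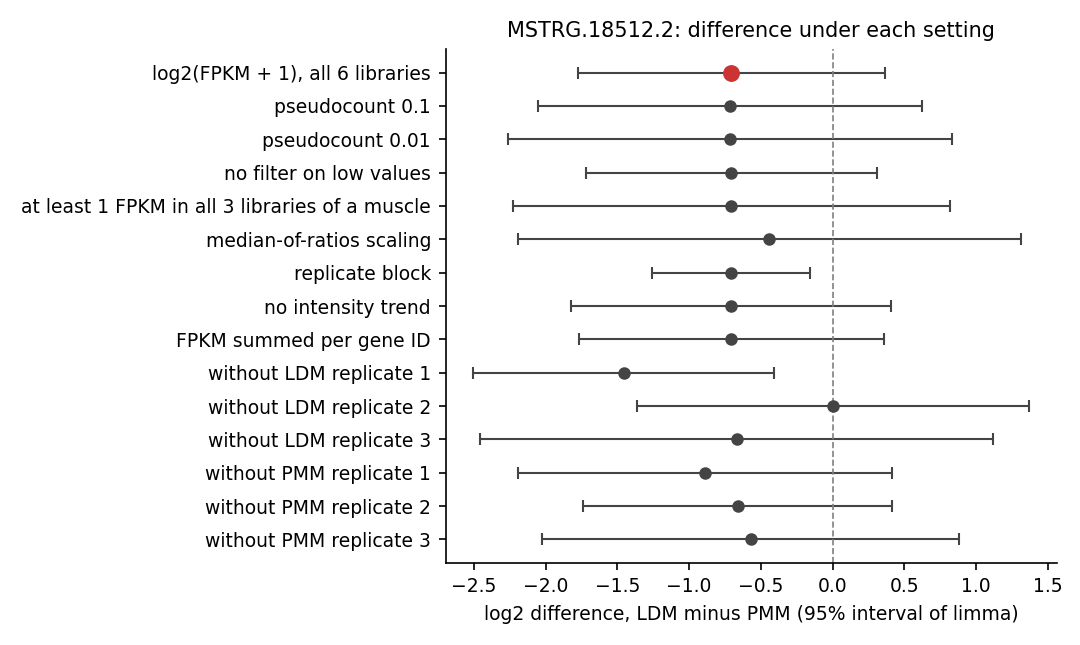
Difference of MSTRG.18512.2 on the log2 scale (x axis, LDM minus PMM) in the fit on log2(FPKM + 1) with all 6 libraries (red) and in 14 other fits (y axis). Points are limma estimates and whiskers their unadjusted 95% intervals. The estimate moves from -0.71 to -1.46 without LDM replicate 1 and to 0.0015 without LDM replicate 2.

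Among all transcripts of the table, MSTRG.18512.2 ranked at 1, 8 and 5 by FPKM in LDM replicates 1, 2 and 3, and at 5, 1 and 3 in the PMM replicates. Its FPKM was 41.5 to 521 times the median of the transcripts above 0 in the same library, with the smallest multiple in LDM replicate 2. Of the summed FPKM of the table it made up 8.61%, 0.460% and 3.40% in LDM and 3.56%, 5.09% and 6.78% in PMM, a mean share of 4.16 ± 4.13% for LDM and 5.14 ± 1.61% for PMM (SD, n = 3). With the highest other transcript of each library left out of the sum, its share in LDM replicate 2 rose to 0.826% and stayed the lowest of the 6. By aligned bases, where long transcripts weigh more, it held 0.294% to 4.70% in LDM and 1.90% to 3.66% in PMM, and its rank in LDM replicate 2 was 28. Among the transcripts with more than 1 exon it ranked at 1 to 5 in LDM and at 1 to 3 in PMM.

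**Figure D4:**
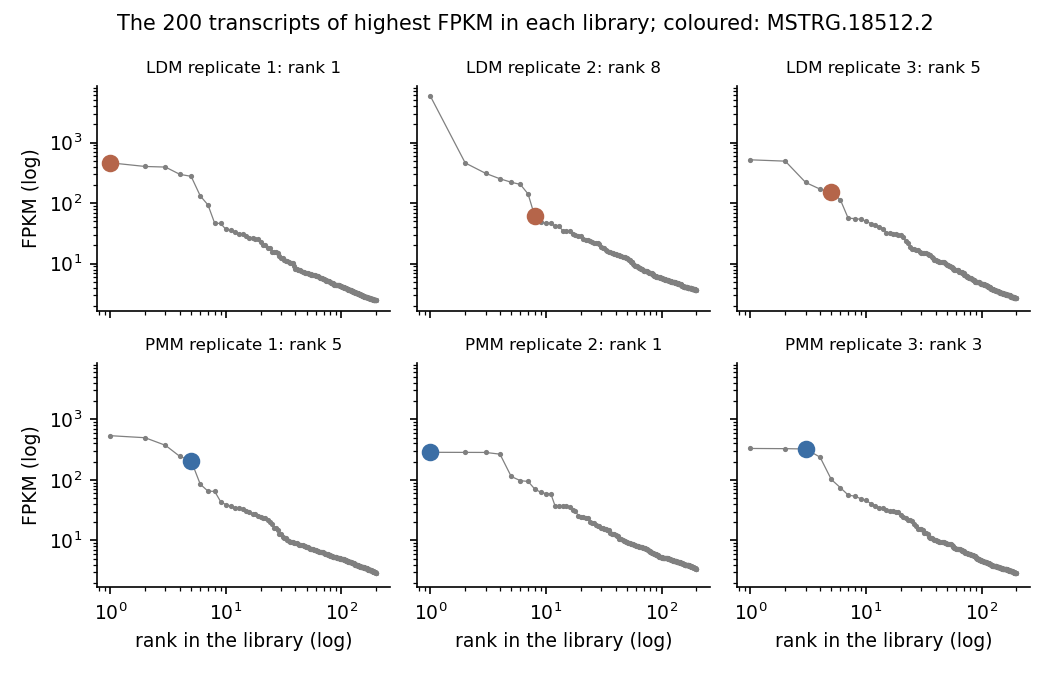
FPKM (y axis, log) against rank (x axis, log) for the 200 transcripts of highest FPKM in each of the 6 libraries, with MSTRG.18512.2 as the coloured point. It ranks at 1, 8 and 5 in LDM and at 5, 1 and 3 in PMM, and in LDM replicate 2 it lies below the group of high transcripts.

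By the mean over the 6 libraries, 249 FPKM, MSTRG.18512.2 was the fifth transcript of the table, and its neighbours in that order were not separated from it. Next above it were MSTRG.9572.1, an intergenic transcript on chromosome 2 with 217 ± 54.8 FPKM across LDM libraries and 364 ± 119 FPKM across PMM libraries, and MSTRG.14595.1 of chromosome 6, on the strand opposite to ssc-mir-4332, whose LDM libraries had 338 ± 140 FPKM and whose PMM libraries had 255 ± 25.4 FPKM (SD, n = 3). MSTRG.18512.2 was higher than MSTRG.9572.1 in 2 of 6 libraries and higher than MSTRG.14595.1 in 3 of 6. Next below it was MSTRG.17390.3, at the Cajal body RNA gene SCARNA13, whose LDM libraries had 132, 311 and 519 FPKM and whose PMM libraries had 0, 94.2 and 0 FPKM, and which MSTRG.18512.2 exceeded in 4 of 6 libraries. After that came MSTRG.7363.1, an intergenic transcript on chromosome 15 with 403, 461 and 0 FPKM in LDM and listed at 0 in all 3 PMM libraries. MSTRG.18512.2 exceeded it in 5 of 6 libraries, LDM replicate 2 being the exception. Another SCARNA13 transcript, MSTRG.17390.5, overlaps MSTRG.17390.3 on the same strand. It reached 372 FPKM in PMM replicate 1, where MSTRG.17390.3 was listed at 0, and 97.0 FPKM in PMM replicate 2. Both were listed at 0 in PMM replicate 3, and the highest LDM value of MSTRG.17390.5 was 50.4 FPKM. A value of 0 for MSTRG.17390.3 therefore does not mean that the SCARNA13 locus was silent. Unlike MSTRG.17390.3 and MSTRG.7363.1, MSTRG.18512.2 was never listed at 0. The same held for 38 of the 43 transcripts with a mean of at least 10 FPKM, itself included.

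MSTRG.18512.2 varied more among LDM libraries than most abundant transcripts did. Its SD of log2(FPKM + 1) was 1.46 in LDM and 0.33 in PMM, and the highest library was 7.65 times the lowest in LDM and 1.56 times in PMM. Among the 43 transcripts with a mean of at least 10 FPKM, the median SD was 0.41 in LDM and 0.25 in PMM. MSTRG.18512.2 ranked at 4 of 43 by its SD in LDM and at 17 of 43 by its SD in PMM. Of the 38 that were above 0 in all 6 libraries, only MSTRG.17109.1 had a larger SD in LDM. Of the 43, the SD was larger in LDM than in PMM for 26. The pattern of its LDM values was not general. With MSTRG.18512.2 itself counted, the lowest LDM value fell in replicate 2 for 8 of the 43. The highest fell in replicate 1 for 5, and both held for 2. The difference in spread between the muscles was not tested.

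**Figure D5:**
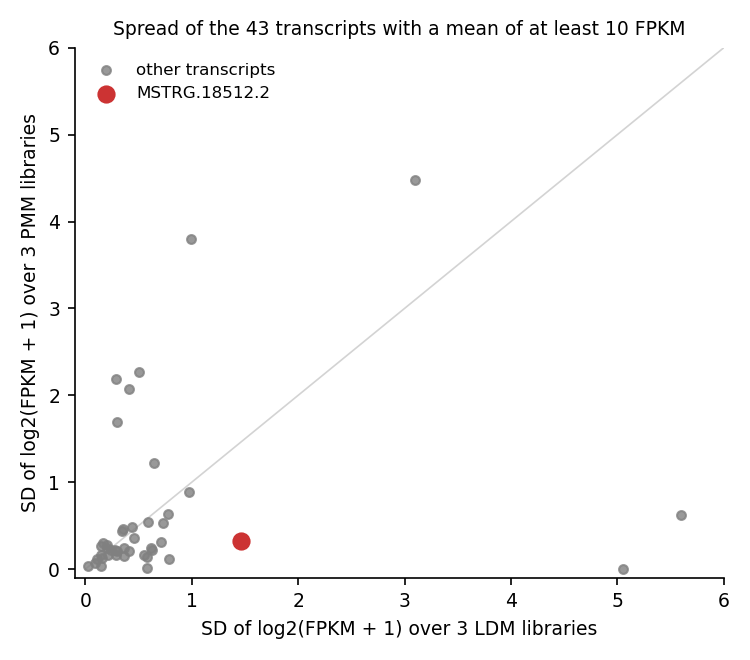
SD of log2(FPKM + 1) over the 3 LDM libraries (x axis) and over the 3 PMM libraries (y axis), in log2 units, for the 43 transcripts with a mean of at least 10 FPKM. The line marks equal SD, and MSTRG.18512.2 (red) lies below it with 1.46 in LDM and 0.33 in PMM.

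Among the transcripts of its own class, MSTRG.18512.2 had by far the highest level, but it was chosen for its level. Over the whole table, 43 of 4046 transcripts had a mean of at least 10 FPKM. Low levels of the other class members are therefore not particular to the class. The table holds 15 other class j transcripts, with 2 to 4 exons and 216 to 11438 bases, so its 3 exons and 1088 bases were within their range. Their mean FPKM over the 6 libraries had a median of 0.753 and reached at most 4.44, and MSTRG.18512.2 made up 94.1% of the mean FPKM summed over the class. The highest of the others was MSTRG.7338.1 at MTX2, a protein of the mitochondrial outer membrane, with a mean FPKM of 4.73 ± 1.36 across LDM and 4.14 ± 0.550 across PMM (SD, n = 3). MSTRG.18512.2 had 56.2 times its mean FPKM. MSTRG.5516.2, at a gene the table gives only by its Ensembl ID, and MSTRG.16563.4, at the complement gene C2, followed with means of 1.597 and 1.514 FPKM. Of the 15, 13 were above 0 in all 3 libraries of a muscle, and 0 of these had an adjusted p under 0.05 from limma, with 0 at an unadjusted p under 0.05. Over all tested transcripts these shares were 0.174% and 7.84%, so nothing particular to the class is read from 0 of 13. Their log2 differences (LDM minus PMM) ran from -0.61 to 0.43 with a median of 0.13, against a median of -0.01 over all tested transcripts.

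Other transcripts at genes of calcium handling were far lower than MSTRG.18512.2, which was chosen for its level. They lay in introns, whereas MSTRG.18512.2 shares a splice junction with SLN, so unlike kinds of transcript are compared. The messenger RNAs of these genes were not analysed here. Of 49 listed genes of the calcium store, its release channels, the pump and calcium signalling, 6 had a transcript in the table, SLN included. The other 5 genes had 8 transcripts, all in introns, of which 5 were tested. None of these 5 had an adjusted p under 0.05 from limma, and 1 had an unadjusted p under 0.05, where the shares over all 1721 tested transcripts were 0.174% and 7.84%. With 5 transcripts, calls at these shares would be few or none, and nothing particular to the list is read from the counts. Their median log2 difference (LDM minus PMM) was 0.42, against -0.01 over all tested transcripts. MSTRG.18917.1 in CACNA2D1, a subunit of the calcium channel of the fibre membrane, was at 4.47, 5.43 and 2.19 FPKM in LDM replicates 1, 2 and 3 and at 4.86, 7.53 and 5.74 FPKM in the PMM replicates (limma, adjusted p = 0.695). It was the highest of the 8, and MSTRG.18512.2 had 49.5 times its mean FPKM. MSTRG.12990.1 in ASPH, whose products include junctin of the calcium release complex, had means of 2.27 ± 0.464 FPKM for LDM and 1.05 ± 0.654 FPKM for PMM (SD, n = 3, with an adjusted p of 0.622 by limma). MSTRG.12917.1 in JPH1, which ties the calcium store to the fibre membrane, was at 1.84, 2.85 and 0.652 FPKM in LDM replicates 1, 2 and 3 and at 0, 0.00113 and 1.22 FPKM in the PMM replicates (limma, adjusted p = 0.596). It was the transcript under 0.05 without adjustment. MSTRG.18101.1 in PPP3CA, the catalytic subunit of calcineurin, and MSTRG.8885.1 in NFATC2, a factor that calcineurin activates, had log2 differences (LDM minus PMM) of 0.05 and 0.42 (limma, adjusted p = 0.971 and 0.753). No transcript was found under the symbols of the pump genes ATP2A1 and ATP2A2 or of the related pump regulators PLN and MRLN, though 83 Ensembl IDs of the table could not be matched to a symbol.

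The surroundings of MSTRG.18512.2 in the table were sparse and low. Within 1 Mb of it lay 3 other transcripts of the 183 on chromosome 9, whereas the median transcript of the table had 6 others within 1 Mb, and 28.1% had 3 or fewer. All 3 lay at higher coordinates on the same strand and had a single exon, and no transcript lay within 2 Mb on the other side. The nearest was MSTRG.18515.1, an intergenic transcript of 234 bases from 40626773 to 40627006, 308054 bases away. The LDM libraries listed it at 0, 0.532 and 0 FPKM and the PMM libraries at 1.52, 0 and 0 FPKM. MSTRG.18525.1, in an intron of EXPH5 from 41202626 to 41203389, had 1.07 FPKM in PMM replicate 2 and was listed at 0 in the other 5 libraries. MSTRG.18526.1, an intergenic transcript from 41260847 to 41261120, had 0.414 FPKM in LDM replicate 1, 1.15 and 0.216 FPKM in PMM replicates 1 and 2, and 0 in the remaining 3 libraries. These values rested on coverage equivalent to 24.0 to 40.9 reads of 150 bases in all 6 libraries together. None of the 3 was above 0 in all 3 libraries of a muscle, so 0 of 3 were tested, and none repeated the order of the libraries seen for MSTRG.18512.2. Its mean FPKM was 730 to 1399 times theirs.

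More transcripts ran against the pattern of MSTRG.18512.2 over the 6 libraries than with it. Among the 579 other tested transcripts with a mean of at least 1 FPKM in each muscle, the Pearson correlation of log2(FPKM + 1) with it had a median of -0.19, and it was above 0 for 30.1%. It reached 0.8 for 4 transcripts and was at or under -0.8 for 20, with a lowest value of -0.975. These correlations rest on 6 libraries that share their depth and normalisation across transcripts, and they are given as a description only. The highest was MSTRG.7597.1, an intergenic transcript on chromosome 15, with r = 0.909 (rho = 0.943). Its LDM values were 1.67, 0.641 and 0.734 FPKM and its PMM values 1.08, 1.67 and 1.59 FPKM. MSTRG.12019.1, intergenic on chromosome 3, followed with r = 0.879, and was listed at 0 in LDM replicate 2 and at 3.34 FPKM or more in the other 5 libraries. MSTRG.9573.2, a spliced intergenic transcript on chromosome 2 of 3 exons, had r = 0.856, with 36.9, 18.3 and 17.3 FPKM in LDM and 30.0 to 30.6 FPKM in PMM. MSTRG.16775.1 in an intron of CUL9, and MSTRG.10999.1, intergenic on chromosome 2, had r = 0.807 and 0.797. Without LDM replicate 2 these last correlations fell to 0.367 and -0.0881, whereas those of MSTRG.7597.1, MSTRG.12019.1 and MSTRG.9573.2 were 0.908, 0.759 and 0.856.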

How the data were processed

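By the paper, 150-base paired reads were aligned with Tophat to Sscrofa11.1, which the positions of the deposited transcripts do not match. Cufflinks is named for the assembly, although the transcript IDs begin with MSTRG. The deposited table holds the FPKM that the authors computed per transcript and library, their read coverage per base (a signal not scaled between libraries), and their CPC and CNCI scores. No count model was applied. The difference was taken on log2(FPKM + 1) with limma 3.58.1 (R 4.3.3), with a trend of the spread over intensity, and p-values were adjusted after Benjamini-Hochberg over 1721 transcripts. These were above 0 FPKM in each library of at least 1 muscle. For low transcripts this scale makes a change look smaller than it is. The alternatives were pseudocounts of 0.1 and 0.01, other filters, scaling, a replicate block, no trend, sums per gene ID and left-out libraries.

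As a check of pairing, each library was expressed as its deviation from its muscle mean. Same-numbered libraries gave correlations of 0.239, 0.123 and 0.168, and all other pairs across muscles gave -0.179 to 0.0423. Deviations from a muscle mean cancel out within each muscle, so higher values for some pairs lower the others. With 3 libraries per muscle there are few ways to match them, so this contrast cannot decide the pairing. Only the replicate block and the same-number differences took the numbers to pair the libraries. This is an assumption, since the labels do not say so. The main fit and the permutation test did not use it. The paper describes the replicates as biological, with RNA integrity numbers above 8. Both muscles were sampled from 8 pigs, and 3 of 8 samples were drawn at random. Whether the same pigs gave the libraries of both muscles is not stated.

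The transcript and the gene lists were chosen with earlier results of these data known. Named were the transcript itself, its neighbours by position and by mean FPKM, the tested transcripts of the calcium list, the 3 highest of class j, and the 5 most alike in pattern. Tables and plots were made in Python 3.11.15 with pandas 2.3.3, numpy 2.4.6 and matplotlib 3.10.9. Ensembl IDs in place of gene names were matched for 81 of 164. Sequences of SLN were not used here.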

Additional observations from a re-analysis of the deposited data

How the results depend on the processing

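The difference of MSTRG.18512.2 kept its direction in 13 of 14 alternatives and an adjusted p above 0.05 from limma in all 14. The other filters, the replicate block, the fit with no trend and the sums per gene ID could not change its estimate of -0.71. Their direction is therefore no check, and only the pseudocounts, the scaling and the left-out libraries could move it. The log2 difference (LDM minus PMM) ranged from -1.46 to 0.0015 over the left-out libraries, and the value of 0.0015, without LDM replicate 2, is the reversal of sign. Median-of-ratios scaling shifted the median of all transcripts by 0.10 and gave -0.44. With the replicate block the adjusted p was 0.208 from limma, and the block changed no call on MSTRG.18512.2. The number of transcripts called, 3, became 78 with pseudocount 0.01, 17 with no filter, 8 with the filter of at least 1 FPKM, 48 with the replicate block, and 2 to 5 with a library left out. The cause was not tested. By aligned bases its mean share in PMM was 2.74% in place of 5.14%, since long transcripts weigh more there. A window of 500 kb held 1 other transcript in place of 3. By Spearman rho of FPKM, 2 of the 5 transcripts most alike in pattern were among the first 5. The other shares, and the median rank in each muscle, moved by less than 1 SD between libraries. In LDM replicate 2 alone, the rank went from 8 by FPKM to 28 by aligned bases. The calcium list and class j kept 0 calls from limma with the block and with no filter. Over all tested transcripts, 48 of 1721 (2.79%) were called with the block and 17 of 4046 with no filter. With 5 to 8 transcripts in the list and 13 to 15 in the class, 0 calls could hardly change and are no check. The effect of other depths or more libraries was not tested.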
